A study of Dorcoceras hygrometricum with 51 samples.

Results

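A promoter was counted as rich in CHH methylation when its mCHH level reached 40% or more in the bisulfite library of fresh, non-acclimated Boea hygrometrica (F), where H stands for A, C or T. The promoter value is the average level of such cytosines over the 2000 bases before the coding region, where the level of a cytosine is its methylated reads as a share of its methylated and unmethylated reads. The set was selected on this F value alone, and 1307 of the 18559 promoters measured in F (7.04%) qualified. Boea hygrometrica, listed as Dorcoceras hygrometricum in sequence databases, is a resurrection plant, and its rapid desiccation tolerance is gained by drought acclimation. Leaf methylation was measured by whole-genome bisulfite sequencing in 12 libraries and expression by RNA-seq in 39 libraries, 3 in each of 13 groups. The dried groups were seedlings dried slowly in soil (SD), acclimated plants dried rapidly in air (AD) and fresh plants dried rapidly in air (FD). The hydrated groups were acclimated plants re-watered after soil-drying (A) and fresh plants (F). Acclimated and non-acclimated plants were then grown on for 4 w (A4, F4) or 18 w (A18, F18), and each of these was also air-dried (A4D, F4D, A18D, F18D). FD has no bisulfite library here. All plants were raised from seed collected in the wild, and every group was leaf material of many plants. Each biological replicate pooled about 45 leaves of at least 15 plants, and each bisulfite library pooled the DNA of 6 such replicates, so no methylation value has a replicate error.

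CHH sites are asymmetric, so the opposite strand carries no matching cytosine to copy and the mark has to be set again after each round of DNA replication. In Arabidopsis this is done by DRM2, guided by small RNAs of the RNA-directed DNA methylation pathway (RdDM), and by the chromomethylase CMT2 at histone-marked heterochromatin. In several plants RdDM places mCHH at the edges of transposons that lie close to genes, where it can coexist with transcription.

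F mCHH chose these promoters, so the F level, the other 2 contexts in F and any change against F are descriptions. The level in F ranged up to 89.5%, with a median of 45.8%, and 359 promoters reached 50%, whereas 64 reached 60%. The 5 promoters just inside the limit were F511_31514 (callose synthase 7-like), F511_03262, F511_17625, F511_21699 and F511_00244, at 40.002 to 40.03%, and the 5 just outside were F511_37918, F511_37917, F511_07750, F511_10446 and F511_24172, at 39.98 to 39.99%. F511_24172, an F-box protein gene that is no member, reached 54.2% in A18 and 48.4% in F4. The limit therefore cuts a continuous distribution, and 1892 further promoters lay at 30 to 40% in F.

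The CHH-rich promoters were also methylated in the symmetric contexts. In F, mCG reached 50% in 93.3% of them, against 58.5% of all promoters, and mCHG reached 50% in 89.4%, against 50.6%. The reverse did not hold. Of 4606 promoters with both mCG and mCHG at 80% or more in F, 359 (7.79%) were CHH-rich, close to the share among all promoters, and the median mCHH of those 4606 was 12.6%. In 66 CHH-rich promoters (5.05%) mCHH was above mCG in F, against 11.0% of all promoters. One of the 66, F511_14759 (a pentatricopeptide repeat protein, of the family that processes organelle RNA), had the highest mCHH of all in F, 89.5%, with mCG at 0%. Its mCHH was 49.8% in A4 and 46.8% in A18. The promoter of the neighbouring gene F511_14760 had 48.5% in F, 49.8% in A4 and 43.3% in A18, and did not repeat the 89.5%.

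Across the 12 libraries the set stayed high as a whole (the plot of medians in 3 contexts). The median mCHH was 44.6% in SD, 43.6% in AD, 47.8% in A and 45.8% in F. It was 47.8% in A4D, 42.0% in A4, 50.3% in F4D and 50.7% in F4, and after 18 w it was 47.0% in A18D, 54.3% in A18, 51.6% in F18D and 53.5% in F18. The median over all promoters lay between 12.2 and 19.0% in the same libraries. A4 was the lowest and A18 the highest library of the set. The symmetric contexts had the same low point, since median mCG and mCHG of the set were 69.1 and 64.6% in A4, and reached at most 79.0 and 74.5% elsewhere.

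**Figure D1:**
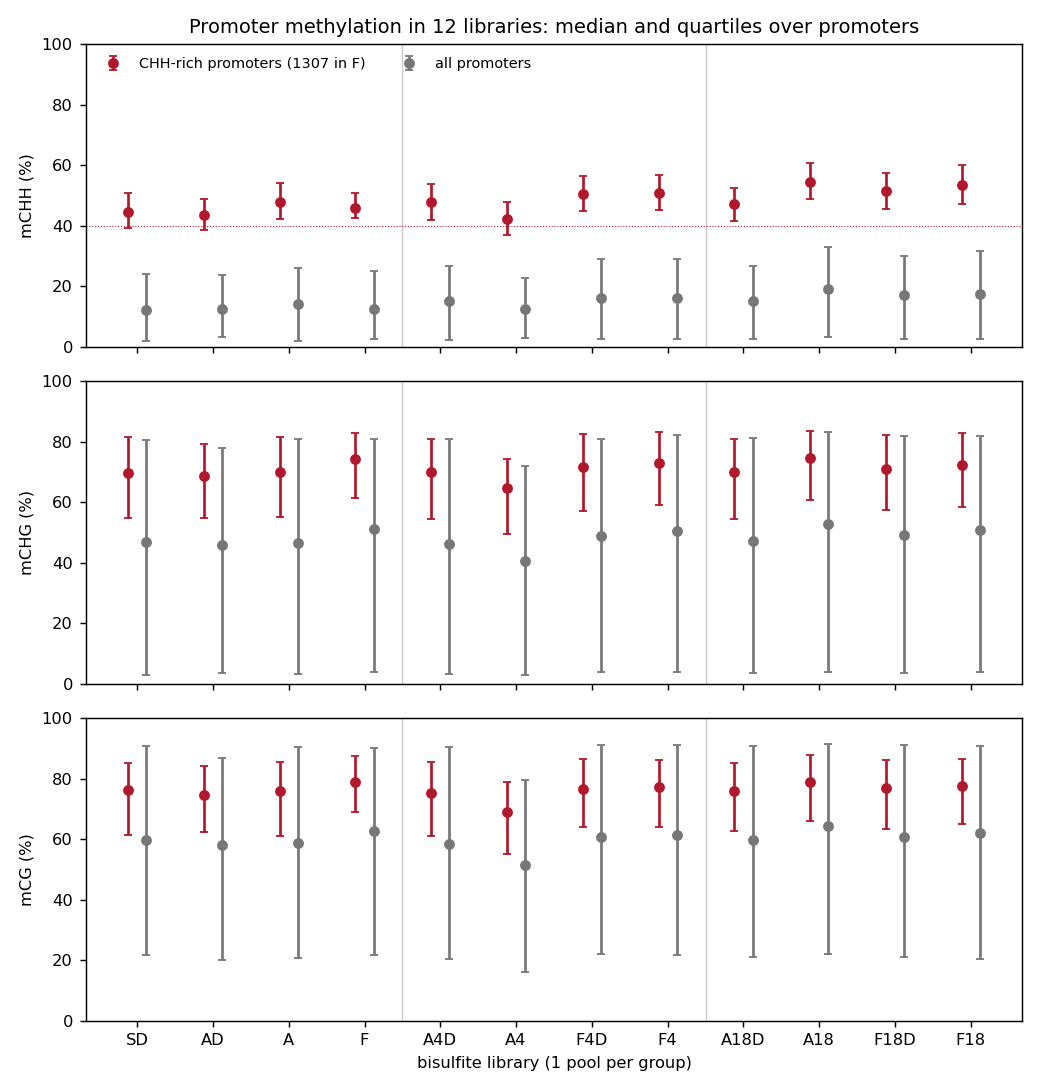
Median promoter methylation in percent, with bars spanning the lower to the upper quartile over promoters, in the 12 bisulfite libraries, for CHH-rich promoters (red) and all promoters (grey), with 1 panel per context. The dotted line is the 40% limit applied in F. Red medians of mCHH lie between 42.0% (A4) and 54.3% (A18), all above the grey medians of 12.2 to 19.0%.

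Of the 1307 promoters, 1268 were measured in all 12 libraries, and 577 of these (45.5%) stayed at 40% or more in every library. Another 673 passed the limit in 1 to 10 of the other 11 libraries, and 18 passed it in F alone. The share still at 40% was lowest in A4, 61.0%, and highest in A18, 93.5%. Promoters outside the set crossed the limit as well, 149 in A4 and 1715 in A18, so that 5.06% of all promoters were at 40% in A4 and 15.8% in A18. Among the 11 libraries other than F, A4 was the lowest in 42.6% of the set, against 21.1% of all promoters. A18 was the highest of these 11 in 40.5%, against 32.0%. Over the 11 libraries other than F, the level of a CHH-rich promoter varied by a median of 17.2 percentage points. It varied by 20 points or more in 430 promoters (33.9%) and by under 10 points in 52.

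Comparisons that leave F out do not use the value that chose the set. A difference of 20 percentage points in the promoter average was taken as the limit for a gain or a loss. The study used that size, with a test, for single cytosines and not for promoter averages. Here every comparison has 1 pooled library a side and no test. The widest difference was between A18 and A4. The median paired difference was 12.4 points, 167 of 1290 CHH-rich promoters gained mCHH and 12 lost it (12.9 and 0.93%), and over all promoters 3.47% gained and 0.217% lost. Set against the median level, the median of A18 was 29.1% above that of A4 in the set and 50.9% above it over all promoters. In F18/F4 the median difference was 2.82 points, with 27 gains and 11 losses, against backgrounds of 0.99 and 0.557%. In A4/A it was -5.81 points, with 9 gains and 42 losses beside backgrounds of 0.275 and 0.805%. The library of A4 thus stood apart from A before it and A18 after it.

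Acclimated and non-acclimated plants of the same age were compared next. In A4/F4 the median difference was -8.43 points, and 79 of 1291 CHH-rich promoters lost mCHH while 11 gained it (6.12 and 0.85%, over all promoters 1.65 and 0.33%). mCG and mCHG of the same promoters differed by -7.71 and -8.10 points, with 17 gains and 110 losses of mCG (background 1.23 and 7.63%) and 17 gains and 121 losses of mCHG (background 0.795 and 5.48%), and over all promoters by -6.52 and -5.08 points, so the lower median level of A4 was shared by the 3 contexts and was not limited to the set. At the low end of mCHH A4 was not lower. Over all promoters its 5th percentile was 1.06%, the highest of the 12 libraries, against 0.419% in F4, and its lower quartile was 2.99%, against 2.52%. Among the 11 libraries other than F, A4 was the highest in 10.9% of all promoters and 0.868% of the set. In A18/F18 the median difference was 1.03 points, with 24 gains and 20 losses, against 1.09 and 0.743% of all promoters. In A/SD, re-watering after soil-drying, it was 3.21 points, with 24 gains and 11 losses and backgrounds of 0.559 and 0.301%.

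Air-dried and hydrated acclimated plants differed in opposite directions at different ages. AD/A gave a median of -4.49 points, with 15 gains and 26 losses among 1292 promoters (background 0.361 and 0.404%). A4D/A4 gave 5.54 points, with 55 gains and 18 losses among 1289 (background 0.951 and 0.346%). A18D/A18 gave -7.33 points, with 17 gains and 57 losses among 1293 (background 0.373 and 1.43%). In non-acclimated plants the medians were nearer to 0. F4D/F4 gave -0.05 points, with 16 gains and 10 losses beside backgrounds of 0.501 and 0.377%, and F18D/F18 gave -1.71 points, with 13 gains and 24 losses beside backgrounds of 0.697 and 0.822%. The symmetric contexts were followed in the comparisons with A4 or A18 and a median mCHH difference of over 5 points. In A4/A, 16 of the promoters gained and 68 lost mCG (background 0.977 and 5.66%), and 21 gained and 77 lost mCHG (background 0.859 and 3.23%). In A18/A4, 132 of the promoters gained and 16 lost mCG (background 9.08 and 1.11%), and 134 gained and 18 lost mCHG (background 7.01 and 0.597%). In A4D/A4, 83 gained and 21 lost mCG (background 5.87 and 1.14%), and 71 gained and 33 lost mCHG (background 3.39 and 0.864%). In A18D/A18, 19 gained and 42 lost mCG (background 2.1 and 3.22%), and 18 gained and 63 lost mCHG (background 0.935 and 2.43%). The A4 library takes part in A4D/A4, A4/F4, A4/A and A18/A4, and the A18 library in A18D/A18, A18/F18 and A18/A4, so these comparisons are not independent of each other. Whether the A4 level belongs to the condition or to that 1 library cannot be told apart.

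The comparisons SD/F, A/F and F4/F hold F itself and are descriptions. SD/F gave a median of -1.27 points with 3 gains and 53 losses among 1297 promoters, A/F gave 2.02 points with 7 gains and 40 losses among 1301, and F4/F gave 4.81 points with 9 gains and 28 losses among 1298. The backgrounds for gain and loss were 0.2 and 0.697% in SD/F, 0.368 and 0.605% in A/F, and 0.735 and 0.487% in F4/F. Since F chose the set, nothing is read from these losses.

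Single promoters differed widely in how steady they were (the map of 20 named promoters). F511_00264, beside a gene matching ROOT UVB SENSITIVE 6, had 42.1% in SD, 42.0% in AD, 47.1% in A, 44.5% in F, 44.1% in A4D, 44.2% in A4, 45.0% in F4D, 47.9% in F4, 43.5% in A18D, 48.1% in A18, 47.5% in F18D and 47.0% in F18. F511_10754, beside a gene for sphingosine-1-phosphate lyase, which breaks down long-chain base phosphates, kept between 54.4 and 61.7%. The NAC transcription factor gene F511_12857 kept between 59.2 and 76.0%. At the other end, F511_04067, for a PGR5-like protein of cyclic electron flow, had 28.0% in AD and 93.8% in F18. F511_16451, annotated as U-box domain-containing protein 9, had 0% in A4D, F4D, F4, A18 and F18D but 69.1% in A4 and 60.7% in F18, and F511_09560 had 0% in A4D and F18D but 95.6% in A4 and A18 and 84.3% in SD, with no value in 5 libraries. The deposited tables carry no read numbers, so how many reads stand behind such jumps is unknown. FAMA (F511_00758), the bHLH factor that drives guard cell differentiation, had 42.8% in AD, 57.3% in A4D, 58.4% in SD and between 73.7 and 85.4% in the other 9 libraries.

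**Figure D2:**
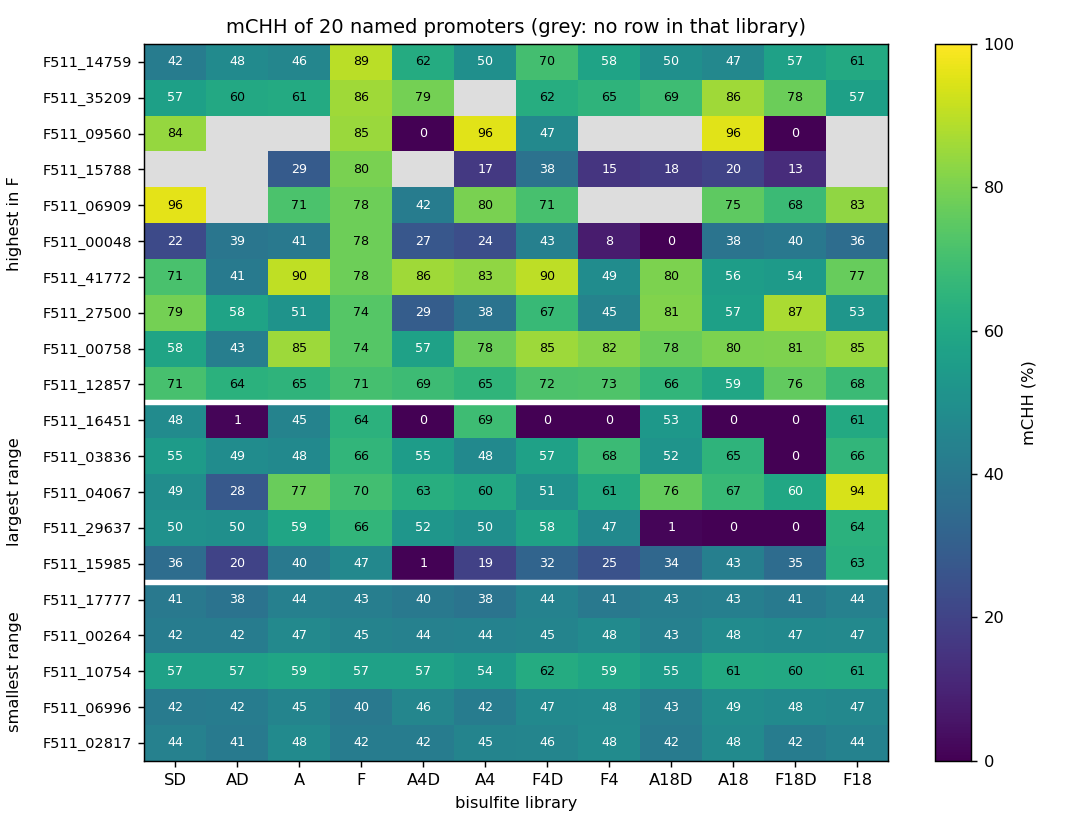
Promoter mCHH in percent, printed and coloured, in the 12 bisulfite libraries for the 10 promoters with the highest F value, the 5 with the largest and the 5 with the smallest range over the other 11 libraries. Grey cells have no value. F511_17777 at the top of the steady block spans 6.08 points, whereas F511_16451 at the top of the variable block spans 69.1 points.

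Neighbouring genes shared some of these promoters. Genes that point away from each other can lie so close that their 2000-base windows overlap, and 735 pairs of neighbours stood in swapped order in the methylation tables. All 605 of them with coordinates lay under 2000 bases apart, and F mCHH correlated within such pairs with r = 0.886 across the 735 pairs, against r = 0.140 across 10734 other neighbouring pairs, as a description of promoters that share sequence. In 18 such pairs both promoters were CHH-rich and in 26 only 1 was. F511_12862 and F511_12863, 1883 bases apart, had the same 40.9% in F, the same 2.23% in A4, and 56.4 and 54.9% in A18. F511_04926, for an alanine-glyoxylate aminotransferase, and F511_04927, for a CCR3-like kinase, had the same 47.2% in F, 1.23 and 1.34% in A4 and 56.6 and 58.2% in F4. These pairs share a stretch of DNA read under each of the 2 genes and are not 2 observations. Values within a pair can still differ. F511_14759 and F511_14760, whose distance is unknown, had 89.5 and 48.5% in F but the same 49.8% in A4. In all, 18 CHH-rich promoters shared all 3 F values with another promoter, and 329 (25.2%) were next to another CHH-rich promoter by locus tag. The nearest neighbouring gene was a median of 2034 bases away from genes of the set, against 1760 bases for all genes with a promoter value, and their gene length was 2395 against 2203 bases.

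Annotated products were taken from the expression table, which holds 1120 of the 1307 genes and not the other 187. Over all promoters with an entry there, 1120 of 12745 were CHH-rich, and the shares by product are to be read against that. CHH-rich were 27 of 305 pentatricopeptide repeat genes (8.85%), 50 of 494 protein kinases (10.1%), 34 of 520 transcription factors (6.54%), 34 of 372 transporters and channels (9.14%), 28 of 384 ubiquitin ligases and F-box proteins (7.29%), 13 of 137 ribosomal proteins (9.49%) and 6 of 45 photosynthesis genes (13.3%). Products related to transposons were 3 of 88 (3.41%).

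In the RNA-seq libraries 12261 to 16315 genes reached 1 FPKM. A4 replicate 2 stood apart with 13369, against 15607 and 16315 in the other A4 libraries, and the A4D/A4 and A4/F4 counts are given with and without it. Genes behind CHH-rich promoters had a higher median level than all genes with a promoter value in F. Levels are given in FPKM, fragments scaled by transcript length and library size, in bulk leaf tissue, where fewer cells of a type and less RNA per cell cannot be told apart. The mean over 39 libraries was 1 FPKM or more for 85.4% of the 1120 genes, against 78.7% of 12745 genes with a promoter value in F, and the median gene had 11.9 FPKM, against 8.96 FPKM. The median of the set was above that of the same 12745 genes in 39 of 39 libraries, at 4.34 to 17.1 FPKM against 2.92 to 12.8 FPKM. Along the range of F mCHH the lowest medians were not at the top (the plot of expression by mCHH). They were 10.0 FPKM at 0 to 2%, 5.73 at 5 to 10%, 6.09 at 10 to 20%, 9.15 at 20 to 30%, 8.71 at 30 to 40%, 10.9 at 40 to 50%, 14.6 at 50 to 60% and 13.9 above 60%. The bands differ in how many promoters have expression values. These were 4106 of 4379 at 0 to 2%, but 914 of 2519 at 5 to 10% and 2149 of 4548 at 10 to 20%, against 1120 of 1307 in the set. The lowest medians thus cover a minority of the promoters in their bands. Genes were not independent points here, and no test was run. Within the set 163 genes had under 1 FPKM and 95 reached 100 FPKM.

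**Figure D3:**
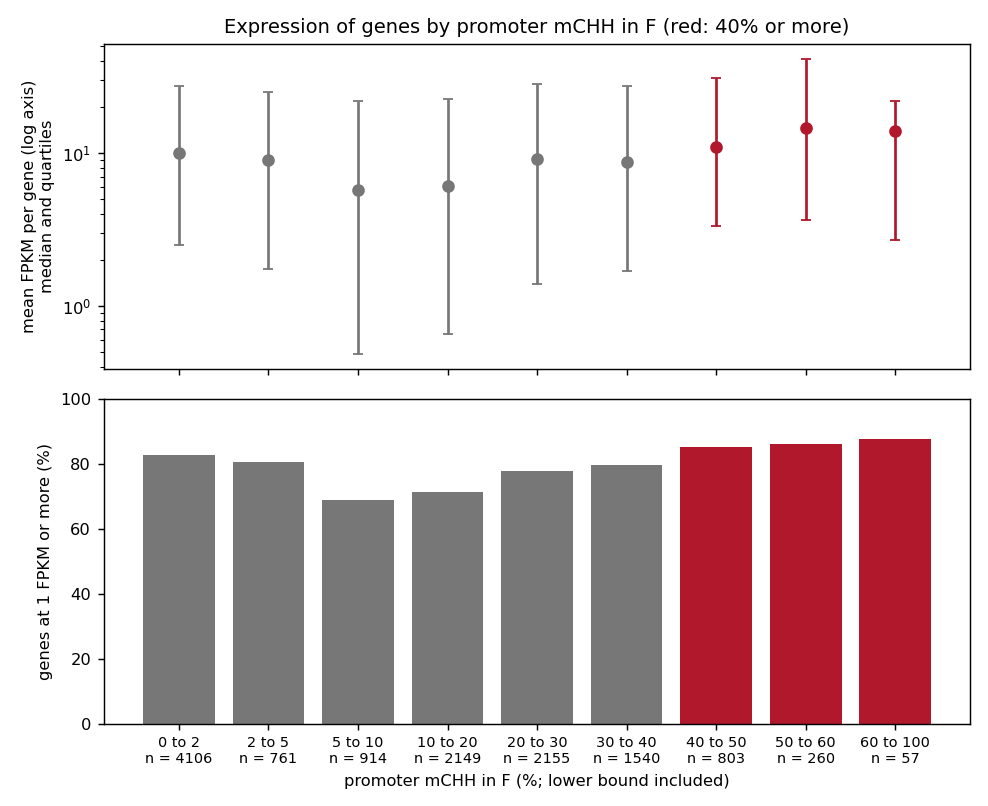
Mean FPKM over the 39 RNA-seq libraries (log axis, median with lower and upper quartile over genes) and share of genes at 1 FPKM or more (bars, percent), by mCHH of the promoter in F. Red bands are the CHH-rich promoters. The median is lowest at 5 to 10% mCHH (5.73 FPKM) and highest at 50 to 60% (14.6 FPKM).

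The most abundant transcript of the set came from F511_05246, an aquaporin of the tonoplast (TIP1-1-like), which averaged 7452 FPKM under a promoter at 47.4 to 57.4% mCHH in all 12 libraries. F511_25516, an early light-induced protein (ELIP, a thylakoid protein that protects against photooxidation), averaged 2014 FPKM with promoter mCHH of 46.0 to 65.7%. F511_18292, photosystem I reaction center subunit XI, averaged 1533 FPKM at 44.5 to 59.7%. The others of the 10 highest were F511_25695 (1574 FPKM), the apolipoprotein D-like F511_16739 (1250 FPKM), F511_11319 (950 FPKM), F511_00244 (803 FPKM), F511_12540 (803 FPKM), F511_18930 (802 FPKM) and F511_01410 (780 FPKM).

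Leaf identity was checked with 17 products of chlorophyll binding, photosystem reaction centres and the small Rubisco subunit, and 15 of these reached 10 FPKM in every hydrated group. A gene was called up- or down-regulated when it differed by 1 or more on the log2 scale with an adjusted p of at most 0.05 in limma with Benjamini-Hochberg adjustment, where fold changes are on the log2(FPKM + 1) scale and understate those of low genes. Of the 1120 genes 1020 reached 1 FPKM in at least 3 libraries and were tested among 18736 genes.

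Drying changed many genes of the set in either direction, in shares near those of all genes, from which they were not tested apart (the plot of shares called). In SD/F, 142 of the 1020 genes were up-regulated and 236 down-regulated (13.9 and 23.1%, background 12.9 and 22.1%). In FD/F the counts were 166 and 304 (16.3 and 29.8%, background 13.2 and 29.1%). In AD/A they were 158 and 324 (15.5 and 31.8%, background 13.1 and 26.2%). F4D/F4 gave 127 and 411 (12.5 and 40.3%, background 10.4 and 35.9%), and A4D/A4 gave 118 and 398 (11.6 and 39.02%, background 10.4 and 35.5%), or 103 and 484 without A4 replicate 2. The backgrounds are of the fit with all libraries, and the share over all genes without A4 replicate 2 is not given. F18D/F18 gave 75 and 354 (7.35 and 34.7%, background 6.13 and 30.2%), and A18D/A18 gave 65 and 254 (6.37 and 24.9%, background 6.43 and 20.6%). The background is all tested genes, also those without a promoter value. Among the 11134 with a value in F the shares up and down were 13.1 and 24.2% in SD/F, 14.1 and 29.2% in FD/F and 13.4 and 28.3% in AD/A. They were 10.5 and 39.2% in F4D/F4, 10.8 and 39.4% in A4D/A4, 6.12 and 32.6% in F18D/F18 and 6.13 and 22.8% in A18D/A18. The excess of down-regulated genes depended on the scaling. The median log2 fold change of all genes was -0.14 for SD/F and -0.45 for FD/F, -0.33 for AD/A, -0.67 for F4D/F4 and -0.61 for A4D/A4, and -0.63 for F18D/F18 and -0.41 for A18D/A18. With libraries scaled by median ratios the shares up and down in the set were 14.9 and 21.1% for SD/F, 21.1 and 20.6% for FD/F, 18.98 and 24.8% for AD/A, 20.7 and 22.6% for F4D/F4, 20.8 and 26.4% for A4D/A4, 12.4 and 9.05% for F18D/F18, and 12.2 and 11.2% for A18D/A18, so that risers outnumbered fallers in F18D/F18 and A18D/A18 and were about level in FD/F. Over all genes tested with that scaling the shares up and down were 10.98 and 9.72% in F18D/F18 and 11.58 and 9.74% in A18D/A18. Risers thus outnumbered fallers in F18D/F18 and A18D/A18 over all genes as well, and this was not particular to the set. In FD/F the shares over all genes were 17.03 and 21.68%, and the difference from the set was not tested. SD/F and FD/F share the F libraries.

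**Figure D4:**
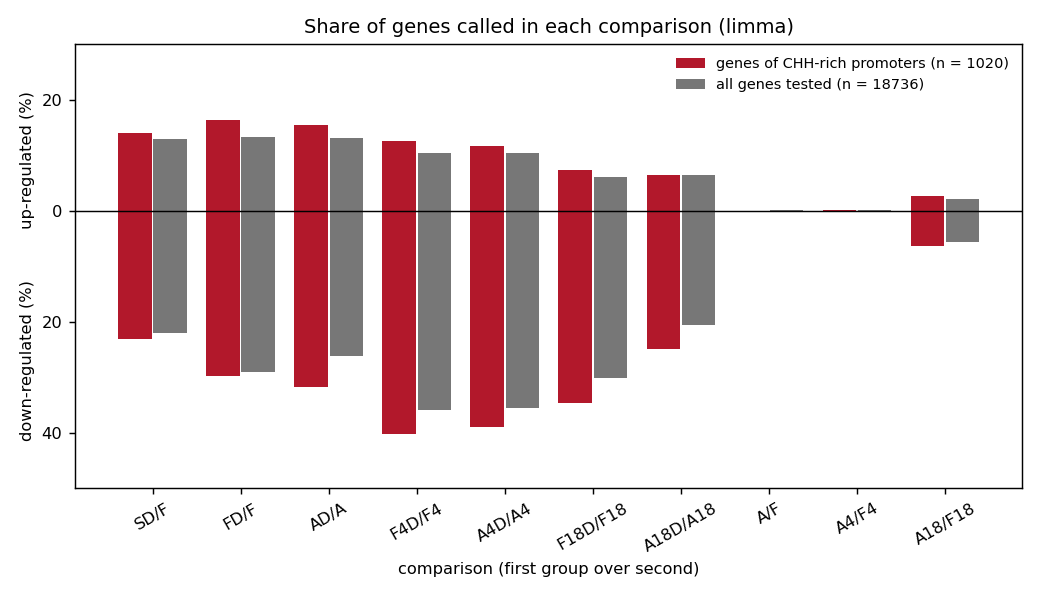
Share of genes called up-regulated (above 0) and down-regulated (below 0) by limma in each comparison, in percent, for the 1020 tested genes with CHH-rich promoters (red) and all 18736 tested genes (grey). The red and grey shares are for example 13.9 and 12.9% up in SD/F, 31.8 and 26.2% down in AD/A, and 40.3 and 35.9% down in F4D/F4.

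Among the stress-induced genes of the set, F511_07080, a U-box ubiquitin ligase, rose in every drying comparison. It had 97.7, 113 and 84.7 FPKM in SD and 379, 430 and 359 FPKM in FD, against 0.22, 0.95 and 0.73 FPKM in F. In AD it had 200, 185 and 210 FPKM, against 0.85, 1.14 and 2.08 FPKM in A, and no dried library overlapped a hydrated one of the same age. The log2 fold change was 5.95 ± 0.58 (SE) in SD/F, 7.92 ± 0.58 in FD/F and 6.43 ± 0.58 in AD/A (adjusted p = 1.24e-09, 1.37e-12 and 2.19e-10, limma). Its promoter kept 45.4 to 59.7% mCHH in all 12 libraries, with 46.0% in AD, 54.4% in A, 53.6% in A4D, 45.4% in A4, 58.0% in F4D and 59.7% in F4.

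ELIP (F511_25516) differed between the ways of drying. It had 19752, 11569 and 7661 FPKM in SD, against 53.4, 38.7 and 40.2 FPKM in F, a log2 fold change of 8.08 ± 1.03 (adjusted p = 1.91e-07, limma). AD had 2405, 1662 and 4008 FPKM, against 42.1, 41.9 and 220.4 FPKM in A, and FD had 262, 128 and 126 FPKM, all above F, without passing the test in FD/F. It was called in SD/F, AD/A, F4D/F4 and A4D/A4. In F18D, with 1737, 463 and 42.8 FPKM, against 67.9, 107 and 35.8 FPKM in F18, the groups overlapped. Promoter mCHH was 46.0% in SD and 53.1% in F, and mCG in F was 85.6%.

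NCED1 (F511_20869), a 9-cis-epoxycarotenoid dioxygenase that catalyses the committed step of abscisic acid synthesis, rose in air-dried leaves. It had 301, 490 and 529 FPKM in FD, against 1.71, 3.03 and 0.59 FPKM in F, and 148, 73.8 and 84.3 FPKM in AD, against 3.36, 2.82 and 6.51 FPKM in A. In SD it had 1.58, 2.11 and 1.83 FPKM, within the range of F. The log2 fold change was 6.39 ± 0.65 in F4D/F4, 5.59 ± 0.65 in F18D/F18 and 3.82 ± 0.65 in A18D/A18 (adjusted p = 1.51e-09, 1.00e-07 and 3.62e-05, limma). A second gene of the family, F511_01118 (NCED5), was up-regulated in all 7 drying comparisons, SD/F included, with promoter mCHH of 37.9 to 53.2%.

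Other genes with large rises were of several kinds. F511_33926, matching the evening-clock factor LUX, had 468, 413 and 331 FPKM in SD, against 4.75, 5.07 and 6.99 FPKM in F, a log2 fold change of 5.94 ± 0.46 (adjusted p = 1.63e-11, limma). F511_04943, a zinc finger protein, had 337, 301 and 430 FPKM in SD, against 2.89, 2.30 and 8.87 FPKM in F. F511_16866, whose product is annotated as Mediator subunit 18 while its best match is an uncharacterised protein, had 1240, 1469 and 1555 FPKM in FD, against 0.95, 4.49 and 2.32 FPKM in F. F511_18427, matching the calcium-binding protein CML23, had 569, 349 and 501 FPKM in F4D, against 9.57, 1.09 and 5.13 FPKM in F4. In each of these 4 comparisons all dried libraries were above all hydrated ones. The lipid-transfer protein gene F511_14073 had 844, 364 and 347 FPKM in FD and is listed at 0 in the 3 F libraries, so no fold is given. As groups, the 28 transcription factors of the set had 5 up- and 7 down-regulated genes in SD/F, 8 and 6 in FD/F and 7 and 7 in F4D/F4. Over all 644 tested transcription factors the counts were 63 and 204, 105 and 209, and 75 and 239. The 48 protein kinases of the set had 10 and 16 in SD/F, 10 and 14 in FD/F and 7 and 17 in F4D/F4 (14 and 13 of 47 with median-ratio scaling). Over all 641 tested kinases the counts were 75 and 202, 101 and 221, and 73 and 255, and the differences were not tested.

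Among the genes with large falls were several with chloroplast products, of which 3 are described here. A further gene, F511_01558, matching TIC 62 of the chloroplast, had a log2 fold change of -5.11 in F4D/F4. F511_31739, geranylgeranyl reductase, which makes the phytol tail of chlorophyll, had 21.5, 21.0 and 17.7 FPKM in FD, against 911, 576 and 657 FPKM in F, and 14.4, 11.4 and 18.5 FPKM in AD, against 1290, 1033 and 601 FPKM in A. Its log2 fold change was -5.06 ± 0.42 in FD/F, -5.91 ± 0.42 in AD/A and -6.13 ± 0.42 in F4D/F4 (adjusted p = 3.27e-11, 4.64e-12 and 1.47e-12, limma). F511_05922, chloroplast phosphoglycerate kinase of the Calvin cycle, had 8.54, 5.77 and 5.62 FPKM in SD, against 634, 424 and 350 FPKM in F, a log2 fold change of -5.92 ± 0.45 (adjusted p = 1.21e-11, limma), although a second phosphoglycerate kinase gene of the set, F511_11601, may share reads with it. F511_00414, LHCP TRANSLOCATION DEFECT, which carries antenna proteins to the thylakoid, had 28.1, 18.4 and 40.5 FPKM in A18D, against 205, 277 and 241 FPKM in A18. The groups did not overlap in any of these comparisons.

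Of the 6 photosynthesis and chlorophyll genes of the set, 3 fell in SD/F, 6 fell in F4D/F4 and 5 fell in each of the other 5 drying comparisons, and none rose. Over all 57 tested genes with such products 39 fell in SD/F, 47 in F4D/F4 and 35 to 47 in the others. The median log2 fold change was -0.92 over the 6 and -2.30 over the 57 in SD/F, and -1.89 and -3.48 in A4D/A4, and the difference was not tested. With median-ratio scaling 2 of the 6 fell in FD/F and 1 in F18D/F18, with 5 in AD/A, F4D/F4, A4D/A4 and A18D/A18 and 3 in SD/F. Under these promoters photosystem I subunit XI (F511_18292) averaged 813 ± 200.2 FPKM in SD, 1072 ± 297 FPKM in FD and 3272 ± 719.8 FPKM in F (mean ± standard deviation, n = 3 libraries each). Of 26 pentatricopeptide repeat genes of the set 4 rose and 3 fell in SD/F, beside 32 and 42 of 376 over all such genes. In rapid drying 11 fell in FD/F, 6 in AD/A and 13 in F4D/F4, beside 169, 123 and 201 of 376, and with median-ratio scaling 8, 2 and 6.

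**Figure D5:**
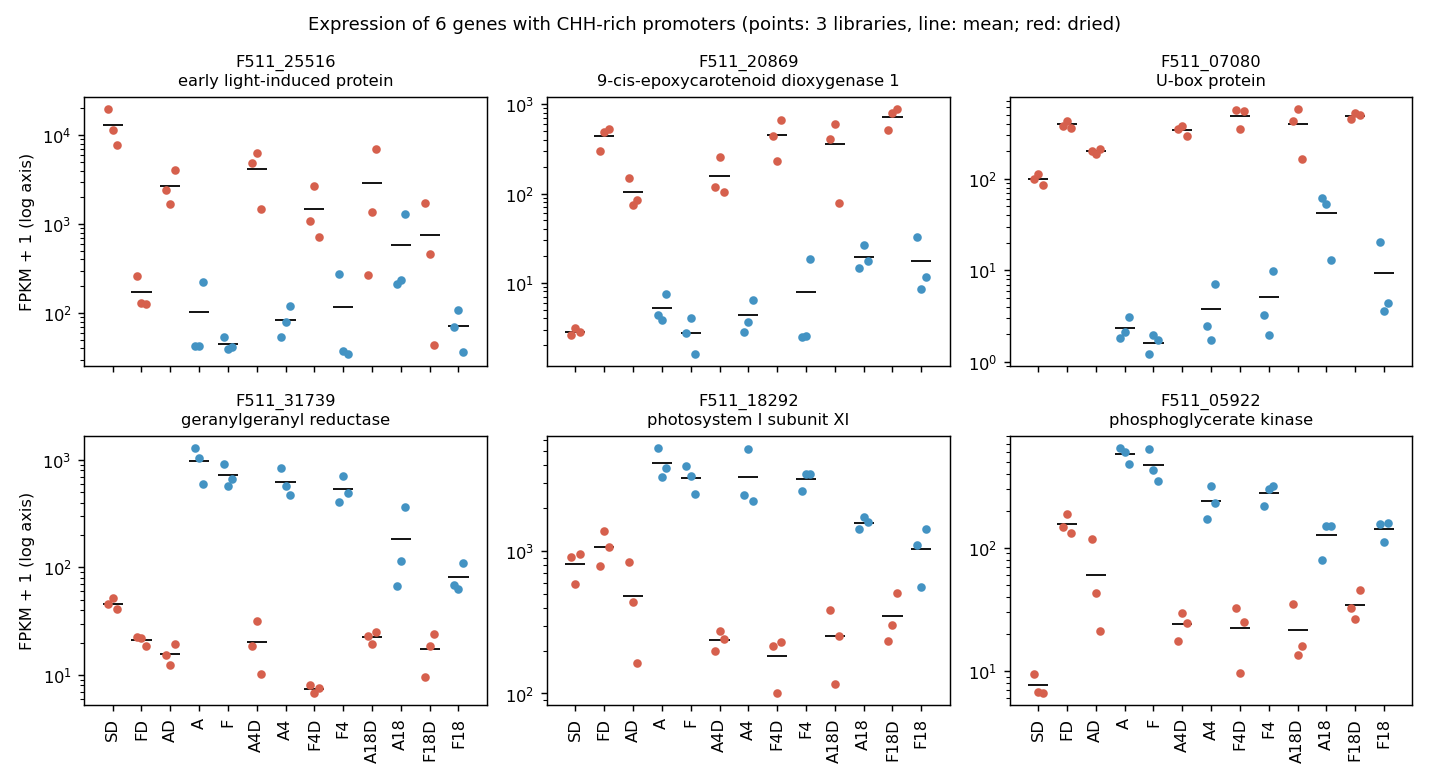
Expression of 6 genes with CHH-rich promoters in 13 groups, as FPKM + 1 on log axes, with 1 point for each of the 3 libraries of a group and a line at the mean, in dried (red) and hydrated (blue) leaves. NCED1 (F511_20869) has 301 to 529 FPKM in FD, against 0.59 to 3.03 FPKM in F, whereas geranylgeranyl reductase (F511_31739) has 17.7 to 21.5 FPKM in FD, against 576 to 911 FPKM in F.

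Other strongly lowered genes of the set came from various functions. F511_14017, matching IQ-DOMAIN 31, had 1.23, 0.34 and 0.13 FPKM in SD, against 182, 127 and 124 FPKM in F. F511_12060, matching an anthocyanidin glucosyltransferase, had 1.24, 0.83 and 0.53 FPKM in F4D, against 116, 113 and 96.8 FPKM in F4. F511_32296, matching the nitrate transporter NRT1.1, had 35.4, 40.02 and 70.9 FPKM in F18D, against 507, 779 and 620 FPKM in F18. F511_01895 had 0.21, 0.13 and 1.59 FPKM in SD, against 98.7, 62.0 and 79.2 FPKM in F, but shares its best match with its neighbour F511_01896, and reads between such copies may be split by the abundance estimate. The prefoldin gene F511_07735 had 31.6, 35.1 and 40.1 FPKM in F and is listed at 0 in all FD libraries.

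Over the 7 drying comparisons 13 genes of the set rose in all (1.27%, all genes 1.47%), 73 fell in all (7.16%, all genes 6.60%) and 187 passed the test in none (18.3%, all genes 21.9%). With median-ratio scaling 31 of 1017 rose and 22 fell in all 7, among them the same 13 and 22 of the 73. Over all 18596 genes tested with that scaling, 507 rose and 508 fell in all 7. The 13 include, besides F511_07080, F511_33926, F511_01118 and F511_04943, genes matching the stress regulators ZAT10 (F511_16237), MYB44 (F511_16248) and ERF018 (F511_06677), and F511_00264, the gene with the second steadiest promoter. F511_04067, the PGR5-like gene with the third most variable promoter, was among the 73 and also among the 22, as were F511_31739, the chloroplast ribosomal protein gene F511_01765 and the cytokinin response regulator F511_03292. These were named after their values were seen.

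Acclimation by itself left few calls. In A/F no gene of the set was called in either direction (background 0.0587% each way), 1 was called up without F replicate 1 and 2 without A replicate 1, and 66 of 1020 (6.47%) had an unadjusted p under 0.05, against 7.66% of all genes. In A4/F4, 1 gene was up-regulated and 0 were down-regulated (background 0.0213 and 0.0267%), with 91 genes (8.92%) at an unadjusted p under 0.05, against 9.11%. The gene was F511_18675, of unknown function, with 49.5, 81.1 and 92.8 FPKM in A4, against 17.1, 8.55 and 15.3 FPKM in F4 (log2 fold change 2.37 ± 0.42, adjusted p = 0.0131, limma; 0.0921 without F4 replicate 2). This call was also lost with the comparison fitted alone (adjusted p = 0.71, limma) and without replicate 2 or 3 of all groups (0.113 and 0.0582). Without A4 replicate 2 the counts were 29 up and 5 down, without A4 replicate 3 the count down was 14, and without F4 replicate 2 the counts were 0 up and 1 down. The backgrounds are of the fit with all libraries, so nothing particular to the set is read from counts with a library left out. In A18/F18, 27 genes were up- and 65 down-regulated (2.65 and 6.37%, background 2 and 5.75%), and with median-ratio scaling 36 and 22 (3.54 and 2.16%, background 2.57 and 1.88%). Without F18 replicate 2 the counts were 11 and 23, and without A18 replicate 2 the count down was 29.

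F511_18275, for a BURP domain protein (a plant cell wall family), differed most in A18/F18. It had 2.47, 0.74 and 0.97 FPKM in A18, against 117, 635 and 260 FPKM in F18, a log2 fold change of -6.89 ± 0.70 (adjusted p = 2.42e-07, limma). Its promoter mCHH was 44.9% in A18D, 16.6% in A18, 49.0% in F18D and 28.6% in F18, and 42.5 to 50.9% in the other 8 libraries. The apolipoprotein D-like gene F511_16739 had 1187, 2651 and 2346 FPKM in A18, against 320, 185 and 238 FPKM in F18, a log2 fold change of 3.01 ± 0.37 (adjusted p = 4.87e-06, limma), with promoter mCHH of 23.0% in A18 and 22.5% in F18. F511_01410, of unknown function, had 1067, 1085 and 353 FPKM in A18, against 135, 20.3 and 44.1 FPKM in F18.

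Whether acclimated plants respond to rapid drying as other plants do was tested as a difference of log2 fold changes. In (AD/A)-(FD/F), 19 of 1020 genes of the set had a higher and 51 a lower response in acclimated plants (1.86 and 5.00%, background 4.4 and 4.41%). Among tested genes with a promoter value in F the shares were 3.17 and 4.68%, and at 30 to 40% mCHH in F they were 2.21 and 4.34%. The counts of the set fell to 9 higher without F replicate 3 or without AD replicate 3, and to 28 lower without A replicate 3, 31 without AD replicate 3 and 32 without FD replicate 1. NCED1 (F511_20869) differed by -3.07 ± 0.91 (adjusted p = 0.0299, limma), and this call was lost without F, A or AD replicate 3, AD or FD replicate 2, or FD replicate 3, with adjusted p of 0.064 to 0.0889. F511_05818, a chloroplast 13-lipoxygenase of jasmonate synthesis, had 73.2, 50.6 and 25.5 FPKM in AD, against 25.3, 145 and 38.9 FPKM in A, while FD had 244, 342 and 242 FPKM, against 20.3, 22.3 and 9.34 FPKM in F. The difference was -4.19 ± 0.96 (adjusted p = 0.00472, limma; 0.0894 without replicate 3 of all groups). F511_27935, a putative polyamine transporter, had 77.6, 66.8 and 92.0 FPKM in AD, against 6.96, 6.26 and 16.4 FPKM in A, while FD had 3.09, 1.45 and 1.69 FPKM, against 7.15, 6.29 and 11.9 FPKM in F. The difference was 4.59 ± 0.55 (adjusted p = 2.82e-07, limma). After 4 w, 0 genes of the set differed in either direction (background 0.00534% each way), with 58 (5.69%) at an unadjusted p under 0.05, against 5.91% of all genes. Without A4 replicate 2 the counts were 2 higher and 6 lower. All backgrounds of these differences are of the fit with all libraries. After 18 w, 5 were higher and 3 lower (0.49 and 0.294%, background 0.512 and 0.288%). Single libraries moved these small counts between 1 and 10 higher and between 1 and 9 lower, the extremes coming without F18 replicate 2 and without A18 replicate 3.

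Changes of promoter mCHH and of expression were set side by side for the comparisons with both. Over 1010 to 1016 genes of the set, Pearson's r between the change of mCHH and the log2 fold change was -0.02 in AD/A, -0.03 in A4/F4, 0.01 in A18/F18, 0.04 in A4D/A4, 0.02 in F4D/F4, -0.02 in A18D/A18 and 9.51e-06 in F18D/F18, as a description across genes. In A4D/A4 the 44 genes whose promoters gained 20 points or more included 4 up- and 14 down-regulated (9.09 and 31.8%), beside 111 and 374 of the 952 that changed by less (11.7 and 39.3%). In A18D/A18 the 45 that lost as much included 2 up- and 8 down-regulated (4.44 and 17.8%), beside 62 and 240 of 951 (6.52 and 25.2%).

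Genes that set or remove the mark were followed from text patterns on the annotation. All 17 RdDM genes found passed the filter, and 4 fell while 1 rose in SD/F. Rapid drying lowered 9 in fresh plants (FD/F), 13 after 4 w (F4D/F4) and 10 after 18 w (F18D/F18), and in acclimated plants 7 (AD/A), 11 (A4D/A4) and 7 (A18D/A18), and raised none. With median-ratio scaling these counts were 5, 7 and 4 in non-acclimated and 3, 9 and 5 in acclimated plants. The median log2 change was -1.08 in FD/F, -1.67 in F4D/F4 and -1.71 in A4D/A4, beside -0.45, -0.67 and -0.61 over all genes. None passed the test in A/F or A4/F4, and 2 fell in A18/F18 (0 with median-ratio scaling). Of 5 chromomethylase and maintenance genes 3 fell in A4D/A4, 1 fell in F18D/F18 and 1 rose in AD/A, and with median-ratio scaling the counts were 1, 0 and 1. Of 4 demethylase genes 3 fell in each of F4D/F4, A4D/A4 and F18D/F18, 2 fell in SD/F, 1 in FD/F, 1 in A18/F18 and 0 in AD/A and A18D/A18, beside 35.9, 35.5 and 30.2% of all genes in F4D/F4, A4D/A4 and F18D/F18. With median-ratio scaling 2 fell in SD/F, 1 in F4D/F4, 0 in A4D/A4 and 3 in F18D/F18. KZV25539, annotated as CMT2, passed the test in none of the 10 comparisons, with a log2 fold change of 0.17 in A4/F4 and -0.97 in A18/F18.

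Of the 11 RdDM genes with a promoter value in F, 2 were CHH-rich themselves. F511_10793, a subunit 7-like protein of RNA polymerase V, which transcribes the scaffold RNA of the pathway, had 4.48, 1.86 and 3.20 FPKM in A4D, against 21.9, 13.6 and 20.3 FPKM in A4, and 4.65, 2.64 and 1.28 FPKM in AD, against 16.1, 7.35 and 20.7 FPKM in A. The log2 fold change was -2.25 in A4D/A4 and -2.01 in AD/A, both called by limma. Its promoter had 38.7% mCHH in A4D, 32.7% in A4 and 46.4% in F4. F511_02809, a SUVH9-like protein, which in Arabidopsis helps to bring RNA polymerase V to methylated DNA, had 3.32, 4.85 and 4.51 FPKM in AD, against 11.7, 8.93 and 9.11 FPKM in A, and its promoter had 40.7% in AD, 48.5% in A, 50.1% in A4D and 37.8% in A4. None of the 2 maintenance and 2 demethylase genes with a value in F was CHH-rich.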

How the data were processed

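Bisulfite and RNA-seq libraries were made and processed by the authors. Bisulfite reads were aligned with BSMAP with up to 2 mismatches, and the deposited promoter tables give a fraction per context, the average methylation level of its cytosines in the promoter, printed here in percent. Their coverage is not given, so depth is unknown. RNA-seq reads were treated by the authors with HISAT, StringTie 1.0.4, Bowtie2 2.2.5 and RSEM, and the deposited expression table holds FPKM, normalized for length and depth, without counts. The count test foreseen for counts was therefore not run. No genome was used here, and no sequence was read.

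Promoters were linked to genes by locus tag as written. Of 605 swapped neighbour pairs with coordinates all lay under 2000 bases apart under the written tag, whereas 359 of 674 did under the preceding tag. The FPKM column of the methylation tables correlated with the expression of the preceding tag (r = 0.928 to 0.943 over the tables, across genes) and not of the written one (0.0691 to 0.0943), so it was used for this check alone. Of 26693 genes, the 18736 that reached 1 FPKM in 3 libraries or more were tested as log2(FPKM + 1) with limma 3.58.1 in R 4.3.3, in 1 fit of 13 group means over 39 libraries with a variance trend, and p-values were adjusted over all genes by Benjamini-Hochberg. These p-values rest on the spread among libraries within groups, pooled over all 13 groups and moderated by the trend. They do not rest on the 3 libraries of each compared group alone. Methylation, with 1 library per group, was not tested. Tables were joined in Python 3.11.15 with pandas 2.3.3, and figures drawn with matplotlib 3.10.9. Scripts were tested on simulated data.

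The members and gene lists were chosen with earlier results of these data known. Named promoters were the 10 highest in F, the 5 nearest to the limit on each side, and the 5 with the largest and the 5 with the smallest range over the other 11 libraries. Named genes were the 10 with the highest mean FPKM and, per comparison, up to 5 called in each direction with the largest change, groups that did not overlap and a higher group averaging 1 FPKM or more. Differences of responses are named at a size of 3 or more at 0 w, a limit set after the values were seen, and in full at 18 w. Pathway genes were found by product text, since matches by orthology number returned unrelated genes. Alternatives were other limits for members and for a change, median-ratio scaling, 0.1 as pseudocount, dropping the expression filter, each comparison fitted alone, the neighbouring tag, a replicate block and leaving out replicates. Leaving out single libraries was added after seeing the data.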

Additional observations from a re-analysis of the deposited data

Results flagged for a closer look

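For these genes the response to rapid drying differed between acclimated and non-acclimated plants in the test of the difference itself (limma, Benjamini-Hochberg adjusted p at most 0.05). Values are differences of log2 fold changes, acclimated minus non-acclimated.

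In (AD/A)-(FD/F) the response was higher in acclimated plants for the polyamine transporter F511_27935 (4.59), the receptor-like kinase F511_11391 (4.21) and F511_02635 (3.21). It was lower for F511_19809 (-8.23), the lipoxygenase F511_05818 (-4.19), F511_21560 (-3.70), F511_17392 (-3.49), F511_01086 (-3.48), F511_01896 (-3.29), the copia-type F511_11081 (-3.22), the UDP-galactose transporter F511_36260 (-3.11), NCED1 (F511_20869, -3.07) and F511_02939 (-3.01). F511_19809 had 2.41, 0 and 0.88 FPKM in AD, against 4.65, 23.6 and 4.57 FPKM in A, and 17.6, 205 and 228 FPKM in FD, against 2.92, 0 and 0 FPKM in F. For F511_11447, F511_07735 and F511_28227 all FD libraries, and for F511_33928 all AD libraries, are listed at 0, and no size is given. Leaving out a single library ended the call of F511_02939 for 7 libraries, F replicates 1 and 3, A replicates 2 and 3, AD replicates 1 and 2 and FD replicate 1 (adjusted p = 0.0522 to 0.118, limma), and it was also lost without the filter on low values (0.0587). It was lost as well without replicate 1, 2 or 3 of all groups (0.261, 0.0989 and 0.088). The call of NCED1 (F511_20869) was lost for 6 libraries, F, A and AD replicate 3, AD and FD replicate 2 and FD replicate 3, and that of F511_01086 without A replicate 3 (0.0645). Leaving out replicate 1 in all groups ended the calls of F511_11081 (adjusted p = 0.137, limma), F511_02635 (0.17), F511_01896 (0.054), F511_01086 (0.0891) and NCED1 (0.103). Replicate 2 did so for F511_11081 (0.1725), F511_02635 (0.075), F511_01896 (0.109), F511_36260 (0.057) and NCED1 (0.109). Replicate 3 did so for F511_36260 (0.058), F511_17392 (0.0537), F511_05818 (0.0894), F511_01086 (0.157) and NCED1 (0.152). Fitted alone, the comparison lost F511_01086 (0.0763).

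In (A18D/A18)-(F18D/F18) the response was higher in acclimated plants for the BURP gene F511_18275 (5.28), the sugar transporter F511_11538 (2.69), the subtilisin F511_01368 (2.27), F511_21388 (2.18) and the 4-coumarate-CoA ligase-like F511_16152 (1.39). It was lower for the glutamate decarboxylase F511_23720 (-3.03), the apolipoprotein D-like F511_16739 (-3.03) and F511_02440 (-2.61). F511_18275 averaged 1.39 FPKM in hydrated A18 already, whereas it had 337 FPKM in F18 and 5.58 FPKM in F18D (log2 fold change -5.37). F511_16739 averaged 2062 FPKM in A18 and 248 FPKM in F18. For both genes the difference of responses thus includes a difference between the hydrated groups. The call of F511_23720 was lost when any 1 of 8 libraries was left out, A18 replicates 1 and 2, F18 replicates 2 and 3, A18D replicates 1 and 3 and F18D replicates 1 and 2, with adjusted p of 0.0536 to 0.104. That of F511_16152 was lost for 5, A18 replicates 1 and 2, A18D replicate 2 and F18D replicates 1 and 2 (0.0533 to 0.126), that of F511_02440 for 5, A18 and F18 replicate 2, A18D replicate 3 and F18D replicates 1 and 2 (0.0509 to 0.102), that of F511_21388 for 5, A18, F18 and A18D replicate 2 and F18D replicates 1 and 2 (0.055 to 0.109), that of F511_01368 for 3, A18 and F18 replicate 2 and F18D replicate 1 (0.0544 to 0.0975), and that of F511_11538 without F18 replicate 2 (0.0554). Median-ratio scaling also ended the call of F511_21388 (0.0586). With the comparison fitted alone the calls of F511_02440 (adjusted p = 0.169, limma), F511_16152 (0.192), F511_01368 (0.166), F511_23720 (0.1255), F511_11538 (0.125) and F511_21388 (0.0916) were lost. Without replicate 2 of all groups those of F511_01368 (0.49), F511_23720 (0.397), F511_02440 (0.303), F511_11538 (0.368) and F511_21388 (0.484) were lost. Leaving out replicate 1 of all groups ended those of F511_01368 (adjusted p = 0.0709, limma), F511_23720 (0.232), F511_02440 (0.105) and F511_21388 (0.232). Replicate 3 did so for F511_01368 (0.0792), F511_02440 (0.0811) and F511_11538 (0.0888). A pseudocount of 0.1 ended those of F511_16152 (0.439), F511_01368 (0.231), F511_23720 (0.0516) and F511_21388 (0.102). No single library ended the calls of F511_18275 and F511_16739, which were lost without replicate 2 of all groups (0.377 and 0.367), and F511_18275 was also lost with a pseudocount of 0.1 (0.125) and F511_16739 without replicate 1 of all groups (0.0546) and with the comparison fitted alone (0.112). F511_23720, an enzyme that makes GABA, had 340.1, 499.9 and 229 FPKM in A18D, against 922, 1028 and 340.4 FPKM in A18, and 762, 592 and 325 FPKM in F18D, against 177, 101.4 and 120.4 FPKM in F18.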

How the results depend on the processing

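Percentages are of members tested. With a change counted from 10 or 5 points, gains and losses of mCHH were 66.7 and 2.09% or 85.7 and 3.02% in A18/A4, 2.17 and 37.6% or 4.34 and 73.1% in A4/F4, 22.5 and 4.19% or 54.4 and 8.07% in A4D/A4, and 3.09 and 29.2% or 4.41 and 68.6% in A18D/A18. With members from 45%, 16.3% gained in A18/A4. The median difference in F4D/F4 turned to 0.0719 points with members from 35% and 0.0185 points from 45%, each close to 0. Median-ratio scaling gave 20.7% up and 22.6% down in F4D/F4, 20.8% up in A4D/A4, 12.4% up and 9.05% down in F18D/F18, 12.2% up and 11.2% down in A18D/A18, 2.16% down in A18/F18 and 0.295% higher in (A18D/A18)-(F18D/F18). Fitting a comparison alone, on fewer samples, gave 2.55% up and 13.1% down in A18D/A18, 0% up in A4/F4, 0.784% up and 1.96% down in A18/F18, and 0.098% higher and 0% lower in (A18D/A18)-(F18D/F18). A pseudocount of 0.1 gave 3.53% down in A18/F18, and 0.098% higher and 0.196% lower in (A18D/A18)-(F18D/F18). The neighbouring tag gave 0.0938% up and 0.0938% down in A/F, 0% up in A4/F4, and 0.281% higher and 0.188% lower in (A18D/A18)-(F18D/F18). Members from 35% gave 0.123% up in A/F and 0.0613% up in A4/F4, and members from 45% gave 0% up in A4/F4 and 0.174% lower in (A18D/A18)-(F18D/F18). Apart from the construction of each alternative, the cause was not tested.

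Leaving out replicates, in part chosen after seeing the data, gave 3.85 to 6.97% up in A18D/A18, 0 to 0.196% up and 0 to 0.0996% down in A/F, 0 to 2.84% up and 0 to 1.37% down in A4/F4, 0.296 to 2.75% up and 0.0988 to 6.47% down in A18/F18, 0.593 to 2.26% higher and 0.996 to 5.78% lower in (AD/A)-(FD/F), 0 to 0.196% higher and 0 to 0.588% lower in (A4D/A4)-(F4D/F4), and 0 to 0.98% higher and 0 to 0.882% lower in (A18D/A18)-(F18D/F18). Of 106 named fold changes, 79 kept direction and call in every alternative, 109 of 1627 alternative values lost the call, and 0 turned direction.

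A replicate block moved no count by over 1.5 times, with for example 13.8% up and 23.1% down in SD/F. Same-numbered libraries deviated with correlations of -0.43 to 0.30 over 30 values, so the numbers were not taken as pairs. Methylation has 1 pooled library a group and no read numbers, and FPKM carries no depth, so neither counting error nor a limit of detection can be given.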
